A study of Homo sapiens with 6 samples.

Results

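The endoplasmic reticulum (ER) folding, degradation and stress-sensing genes are described here in A549, an established line of human lung adenocarcinoma, with Japoflavone B set against the solvent DMSO. The 38 genes were chosen by symbol from the 61806 genes of the deposited table, and all 38 symbols were found there. They comprise 5 lumenal chaperones, 3 genes of the calnexin cycle, 12 disulfide and thioredoxin-fold proteins, 11 genes of ER-associated degradation (ERAD) and 7 stress sensors and membrane-bound transcription factors. The Japoflavone B group held 3 libraries of cells treated for 24 h, at a dose the labels give as 40 with no unit, and the DMSO group held 3 libraries of cells given the solvent for the same 24 h. Both groups were labelled WT, were grown in serum-containing medium and had been seeded 24 h before treatment. The treated libraries are titled LE-532, and no label says what this code stands for. The series title presents the compound as an inhibitor of PARP1 and its design text concerns cell death, so the comparison asks how mRNA levels differed after treatment. The labels do not say that the libraries of a group came from separate cultures, and p-values therefore measure only the spread between these libraries, which may be technical.

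Proteins that enter the ER are folded by lumenal chaperones, checked through their sugar chains by the calnexin cycle, and joined by disulfide bonds that protein disulfide isomerases form and rearrange. Proteins that fail to fold are passed out through a membrane complex and degraded by the proteasome. When unfolded proteins accumulate, the sensors IRE1 (gene ERN1), PERK (EIF2AK3) and ATF6 start the unfolded protein response, in which IRE1 splices XBP1 mRNA, PERK slows translation while ATF4 protein is made, and ATF6 is cut in the Golgi to free a transcription factor.

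The Japoflavone B libraries held 19822366, 15733769 and 18437272 gene counts, and the DMSO libraries 20826289, 21744407 and 15298531. Mitochondrial genes took 8.33 to 8.58% of the counts in Japoflavone B libraries and 3.97 to 4.70% in DMSO libraries. The 6 keratin and metabolic genes used as A549 markers were measured in every library, which matches the labelled cell line, but all 6 were called lower after Japoflavone B, and their summed level was 1643 to 1690 FPKM there, against 5768 to 6108 FPKM after DMSO. FPKM is the gene count scaled by exonic length and by the library total. Markers of leukocytes and endothelium summed to at most 0.176 FPKM in Japoflavone B libraries and at most 0.161 FPKM in DMSO libraries, with CD3E at 0 in all 6. The fibroblast markers COL1A1, COL3A1 and DCN summed to 0.498 to 0.617 FPKM in Japoflavone B libraries, against 4.59 to 5.11 FPKM in DMSO libraries. Most of this sum was COL1A1, which averaged 0.474 FPKM after Japoflavone B and 4.64 FPKM after DMSO. COL3A1 averaged 0.0834 FPKM after Japoflavone B and 0.179 FPKM after DMSO. DCN, with too few counts to be tested, averaged 0.0121 FPKM after Japoflavone B and 0.00792 FPKM after DMSO. The part of these shifts in the results was not tested. In bulk RNA, a change in the number of cells of a kind and a change in RNA per cell cannot be told apart.

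Of the 38 genes, 25 were called higher after Japoflavone B and 4 lower, 8 were tested and not called, and 1 (DERL3) had too few counts to be tested. A call is an adjusted p under 0.05 in edgeR's quasi-likelihood test on the raw counts, adjusted by Benjamini-Hochberg over all 16082 genes tested. The treatment moved much of the transcriptome: 34.7% of all genes tested were called higher, 35.4% lower and 70% in either direction. Among the tested ER genes, 67.6% were called higher and 10.8% lower. At least 2-fold higher were 6 of the 37 (16.2%), against 9.67% of all genes, and at least 2-fold lower was 1 (2.70%), against 15% of all genes. The median log2 fold change was 0.39 over the 37 genes, with a range of -1.46 to 1.98, and 0.00 over all genes tested. Of the ER genes called, 86.2% were higher with the trimmed-mean (TMM) factors used here, with 25 higher and 4 lower, and the same counts were found with the size factors of DESeq2 and with upper-quartile factors. With library totals alone, which change the scaling only, 77.4% were higher. With limma, which changes the measure and the test as well, 77.8% were higher on log2(FPKM + 1) and 64.3% on log2(TPM + 1). The shares over all genes called were 49.5% with TMM factors, 42.4% with library totals alone, 42.8% on log2(FPKM + 1) and 35% on log2(TPM + 1). The count of genes at least 2-fold higher was 6 with TMM factors, 5 with upper-quartile factors, 4 with library totals alone and 3 on log2(TPM + 1).

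**Figure D1:**
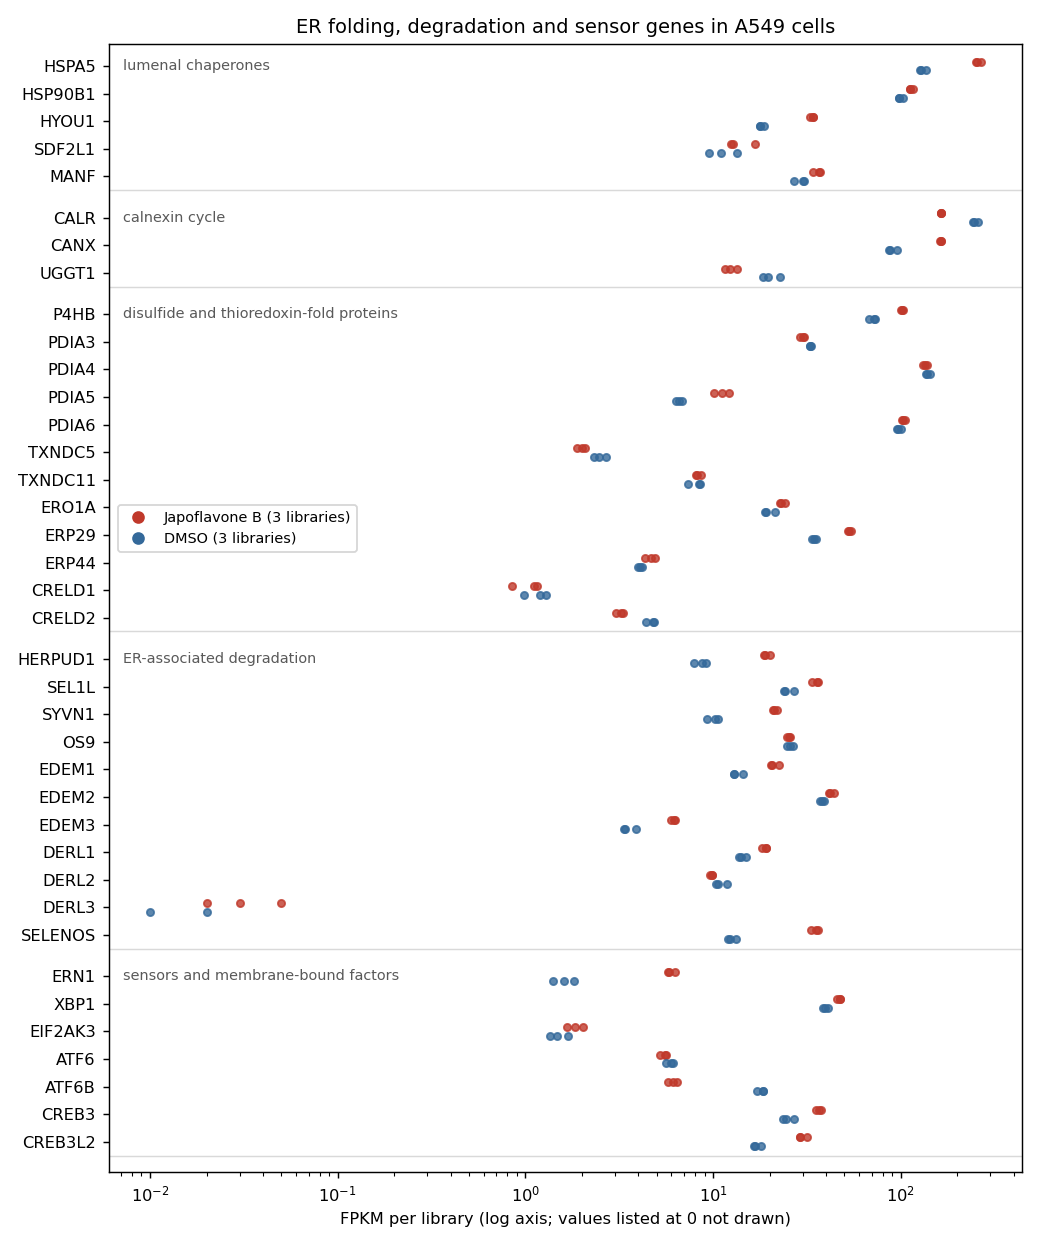
FPKM of the 38 genes in each of the 6 libraries, on a log axis, with the genes grouped by role, Japoflavone B in red and DMSO in blue. All Japoflavone B libraries lay above all DMSO libraries for genes such as ERN1 and SELENOS, and below them for genes such as ATF6B and CALR. Values listed at 0 are not drawn.

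HSPA5 was the most abundant of them after Japoflavone B at 258 ± 8.15 FPKM, against 130 ± 4.94 FPKM after DMSO, where CALR led with 249 FPKM (SD, n = 3 each). After Japoflavone B, CALR at 164 FPKM and CANX at 163 FPKM stood next, within 1 FPKM of each other, and PDIA4, HSP90B1, PDIA6 and P4HB followed at 134, 113, 103 and 101 FPKM. CALR overlapped CANX across the treated libraries, and PDIA6 overlapped P4HB, while the other neighbours in this order lay apart. The lowest were EIF2AK3 at 1.85 FPKM, CRELD1 at 1.04 FPKM and DERL3 at 0.0328 FPKM. The exonic size used for FPKM counts every annotated exon of a gene, and for HSPA5 it equals the whole span of 6530 bases, so levels are read between genes only as far as this size holds.

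Several of these genes are textbook targets of the unfolded protein response, and their promoters are shown because they carry the sequences by which that response is known to act. The ER stress response element (ERSE) is CCAAT followed after 9 bases by CCACG. ERSE-II is ATTGG followed after 1 base by CCACG. ATF6 and XBP1 are known to bind the CCACG part, and NF-Y the CCAAT part. Both strands were searched in RefSeq promoters of GRCh38.p14, from 250 bases before to 50 bases after each gene start, and 35 of the 38 genes had an entry. Of the 35116 promoters in the table, 0.0769% held an ERSE and 0.0541% an ERSE-II, and of its 27305 genes 0.0916% and 0.0696% had such a promoter. Among the ER genes, 7 of 35 (20%) held an ERSE and 3 of 35 (8.57%) an ERSE-II. Each site is given 5′ to 3′ on the strand of its gene, with the fixed letters of the element in capitals and 5 bases on either side; a site that reads CGTGG before ATTGG (ERSE) or before CCAAT (ERSE-II) lies on the opposite strand.
HSPA5 ERSE, chr9:125241386-125241414, minus strand: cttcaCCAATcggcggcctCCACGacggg
HSP90B1 ERSE, chr12:103930211-103930239, plus strand: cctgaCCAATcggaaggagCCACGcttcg
HSP90B1 ERSE, chr12:103930316-103930344, plus strand: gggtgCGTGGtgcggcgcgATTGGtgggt
CANX ERSE, chr5:179698773-179698801, plus strand: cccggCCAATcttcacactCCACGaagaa
CALR ERSE, chr19:12938379-12938407, plus strand: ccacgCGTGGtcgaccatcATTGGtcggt
PDIA6 ERSE, chr2:10812848-10812876, minus strand: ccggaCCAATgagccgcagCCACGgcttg
CRELD2 ERSE, chr22:49918549-49918577, plus strand: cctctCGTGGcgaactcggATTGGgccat
XBP1 ERSE, chr22:28800598-28800626, minus strand: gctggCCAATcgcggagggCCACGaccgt
HYOU1 ERSE-II, chr11:119057375-119057395, minus strand: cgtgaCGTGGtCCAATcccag
HYOU1 ERSE-II, chr11:119057269-119057289, minus strand: tgggaCGTGGtCCAATgagta
SDF2L1 ERSE-II, chr22:21642109-21642129, plus strand: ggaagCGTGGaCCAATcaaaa
HERPUD1 ERSE-II, chr16:56932020-56932040, plus strand: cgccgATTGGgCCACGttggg
HSP90B1 held 2 ERSE sites on opposite strands, and HYOU1 held 2 ERSE-II sites. All 10 genes were called, against 70% of all genes tested, with 8 higher and 2 lower (CALR and CRELD2). Their median log2 fold change was 0.38. The other 25 genes with a promoter entry gave 16 higher, 2 lower and 7 not called, with a median of 0.39. An ERSE was therefore present both in genes that rose and in genes that fell.

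The 250 bases before the RefSeq start of 3 genes are shown because they stand for the different outcomes: HSPA5 (ERSE) rose, CALR (ERSE on the opposite strand) fell, and HERPUD1 (ERSE-II) had the highest fold change of the 10. Capitals mark the element as above.
HSPA5, chr9:125241344-125241593, minus strand, GRCh38.p14: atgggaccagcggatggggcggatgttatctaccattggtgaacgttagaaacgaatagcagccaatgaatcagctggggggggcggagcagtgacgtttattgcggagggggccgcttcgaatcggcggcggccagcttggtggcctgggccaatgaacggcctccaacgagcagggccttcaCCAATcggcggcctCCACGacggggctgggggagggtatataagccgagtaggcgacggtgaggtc
CALR, chr19:12938359-12938608, plus strand, GRCh38.p14: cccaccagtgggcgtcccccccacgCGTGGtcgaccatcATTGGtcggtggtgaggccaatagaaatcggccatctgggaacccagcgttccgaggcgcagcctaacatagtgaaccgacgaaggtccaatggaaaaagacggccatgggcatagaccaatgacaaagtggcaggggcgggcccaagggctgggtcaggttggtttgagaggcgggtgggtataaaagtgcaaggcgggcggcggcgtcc
HERPUD1, chr16:56931892-56932141, plus strand, GRCh38.p14: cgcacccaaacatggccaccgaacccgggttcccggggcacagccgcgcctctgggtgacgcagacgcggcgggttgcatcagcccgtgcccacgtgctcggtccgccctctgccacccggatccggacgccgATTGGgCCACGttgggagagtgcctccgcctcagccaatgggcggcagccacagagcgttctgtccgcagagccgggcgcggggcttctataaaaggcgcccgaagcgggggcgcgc
The element begins 66 bases before the gene start in HSPA5, 225 in CALR and 117 in HERPUD1. The core of the unfolded protein response element, TGACGTGG, was found in HYOU1, TXNDC5 and TXNDC11, 3 of 35 genes (8.57%), against 0.927% of all genes and 0.729% of all promoters; in HYOU1 it overlaps an ERSE-II. A C/EBP-ATF element, TGATG followed after 1 base by AA, was found in HERPUD1 and CREB3L2, 2 of 35 genes (5.71%), against 4.46% of all genes and 3.62% of all promoters. A match describes the letters only and does not show that a factor was bound.

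All 5 lumenal chaperones were called higher after Japoflavone B, against 34.7% of all genes tested. With TMM factors HSPA5 and HYOU1 were higher by at least 2-fold. Both stood close to that limit: with library totals alone their log2 fold changes were 0.98 and 0.90, on log2(TPM + 1) 0.87 and 0.78, and with upper-quartile factors HYOU1 had 0.99. Their summed level was 453, 467 and 444 FPKM in Japoflavone B libraries, against 279, 287 and 299 FPKM in DMSO libraries, a ratio of means of 1.58. HSPA5 alone made up 56.7% ± 0.658 of that sum after Japoflavone B and 45.2% ± 0.515 after DMSO (SD, n = 3 each). With limma on log2(TPM + 1), 3 of the 5 were called higher, against 3868 of all 16082 genes tested.

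HSPA5 (ENSG00000044574, chr9:125234853-125241382, minus strand, GRCh38) encodes BiP, the main ER chaperone, which also holds the stress sensors inactive in resting cells. HSPA5 had 253, 267 and 253 FPKM in Japoflavone B libraries, against 127, 128 and 136 FPKM in DMSO libraries. All 3 Japoflavone B libraries lay above all DMSO libraries, and the log2 fold change was 1.09 ± 0.05 (SE), edgeR adjusted p = 3.64e-17. HYOU1 (ENSG00000149428, chr11:119044188-119057227, minus strand, GRCh38), a large chaperone that exchanges nucleotide on BiP, had 34.1, 34.2 and 32.9 FPKM in Japoflavone B libraries, against 17.8, 17.7 and 18.8 FPKM in DMSO libraries. Again the groups lay apart (log2 fold change 1.00 ± 0.05 (SE), edgeR adjusted p = 8.64e-16). HSP90B1, the ER member of the heat shock protein 90 family, had 112, 116 and 112 FPKM in Japoflavone B libraries, against 98.1, 97.6 and 103 FPKM in DMSO libraries. Its groups also lay apart (log2 fold change 0.29 ± 0.05 (SE), edgeR adjusted p = 5.82e-06), and on log2(TPM + 1) it was not called (adjusted p = 0.13, limma). Within each library HSPA5 stood at 2.26 to 2.31 times HSP90B1 after Japoflavone B and at 1.30 to 1.32 times after DMSO.

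MANF, a small secreted and ER-retained protein that binds BiP, had 36.6, 36.9 and 34.0 FPKM in Japoflavone B libraries, against 27.0, 30.1 and 30.6 FPKM in DMSO libraries. Japoflavone B libraries lay above DMSO libraries (log2 fold change 0.40 ± 0.06 (SE), edgeR adjusted p = 3.77e-06). SDF2L1, which works with a BiP co-chaperone, had 16.8, 12.8 and 12.4 FPKM in Japoflavone B libraries, against 9.48, 13.4 and 11.0 FPKM in DMSO libraries. Here the groups overlapped, since DMSO library 2 lay above Japoflavone B libraries 2 and 3. The log2 fold change was 0.42 ± 0.13 (SE), edgeR adjusted p = 0.00683; without Japoflavone B library 1, which was the highest, it was 0.27 and was not called (edgeR adjusted p = 0.0998), and it was not called on the log2 FPKM and TPM scales with limma either.

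The 3 genes of the calnexin cycle did not move together: CANX was called higher, and CALR and UGGT1 lower. Higher calls made up 33.3% and lower calls 66.7%, against 34.7% and 35.4% of all genes tested. CANX and CALR are the membrane-bound and the soluble lectin that hold glycoproteins during folding. CANX (ENSG00000127022, chr5:179678628-179731641, plus strand, GRCh38) had 162, 163 and 165 FPKM in Japoflavone B libraries, against 95.4, 86.3 and 87.8 FPKM in DMSO libraries. Every Japoflavone B library lay above every DMSO library (log2 fold change 0.96 ± 0.05 (SE), edgeR adjusted p = 4.1e-16). CALR (ENSG00000179218, chr19:12938578-12944489, plus strand, GRCh38) had 163, 164 and 164 FPKM in Japoflavone B libraries, against 242, 247 and 259 FPKM in DMSO libraries. Its Japoflavone B libraries lay within 2 FPKM of each other and below all DMSO libraries (log2 fold change -0.50 ± 0.05 (SE), edgeR adjusted p = 3.54e-10). The ratio of CANX to CALR within a library was 0.996, 0.994 and 1.00 after Japoflavone B, against 0.394, 0.35 and 0.339 after DMSO. FPKM used exonic sizes of 13764 bases for CANX and 2802 bases for CALR. The change in the ratio does not depend on these sizes, but its nearness to 1 does, so it does not show equal transcript numbers. UGGT1, the enzyme that puts glucose back on unfolded glycoproteins and so returns them to the lectins, had 12.2, 11.6 and 13.4 FPKM in Japoflavone B libraries, against 22.8, 19.6 and 18.5 FPKM in DMSO libraries. Its groups lay apart, with Japoflavone B below (log2 fold change -0.61 ± 0.06 (SE), edgeR adjusted p = 3.05e-09). The summed level of the 3 genes was 338, 338 and 342 FPKM after Japoflavone B and 360, 353 and 365 FPKM after DMSO.

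**Figure D2:**
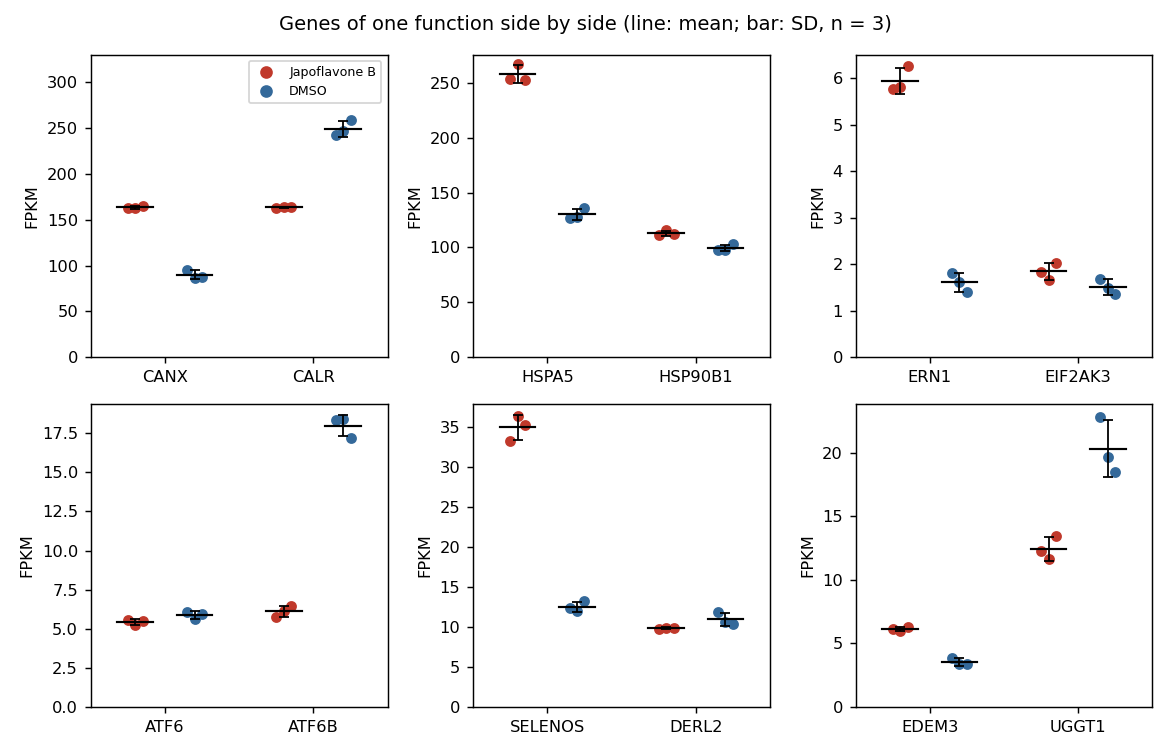
FPKM of 6 pairs of genes with related functions, with a point for each of the 3 Japoflavone B libraries (red, left) and the 3 DMSO libraries (blue, right), a line at the mean and a bar of 1 SD. CANX lay above and CALR below its DMSO level. Both stood at 162 to 165 FPKM after Japoflavone B, a likeness that depends on the exonic sizes used for FPKM. ATF6B was lower while ATF6 was not called.

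Among the 12 disulfide and thioredoxin-fold proteins, 6 were called higher (P4HB, PDIA5, PDIA6, ERO1A, ERP29 and ERP44), 1 lower (CRELD2) and 5 were not called. The shares were 50% higher and 8.33% lower, against 34.7% and 35.4% of all genes tested. None of the 12 changed by 2-fold, and their median log2 fold change was 0.16. With library totals alone, 5 were called higher and 3 lower, against 4764 and 6467 of all 16082 genes tested. With limma on log2(TPM + 1), 3 were called higher and 4 lower, against 3868 and 7169 of all 16082.

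PDIA5, a member of the protein disulfide isomerase family, had 12.2, 10.1 and 11.1 FPKM in Japoflavone B libraries, against 6.38, 6.62 and 6.83 FPKM in DMSO libraries. Its groups lay well apart, and it had the highest fold change of the 12 (log2 fold change 0.86 ± 0.08 (SE), edgeR adjusted p = 1.5e-10). ERP29, a lumenal protein with a thioredoxin fold but without the active cysteine pair, had 54.5, 52.3 and 52.7 FPKM in Japoflavone B libraries, against 34.6, 33.6 and 35.4 FPKM in DMSO libraries. All Japoflavone B libraries lay above all DMSO libraries (log2 fold change 0.72 ± 0.05 (SE), edgeR adjusted p = 1.61e-12). P4HB, the classical protein disulfide isomerase and a subunit of collagen prolyl hydroxylase, had 101, 102 and 100 FPKM in Japoflavone B libraries, against 67.5, 72.1 and 73.1 FPKM in DMSO libraries. The same order held (log2 fold change 0.61 ± 0.05 (SE), edgeR adjusted p = 5.98e-12).

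ERO1A, the oxidase that returns protein disulfide isomerase to its oxidised form, had 23.1, 22.8 and 24.2 FPKM in Japoflavone B libraries, against 21.3, 19.1 and 18.9 FPKM in DMSO libraries. The groups did not overlap (log2 fold change 0.34 ± 0.06 (SE), edgeR adjusted p = 3.7e-06), but the difference was not called on log2(TPM + 1) (adjusted p = 0.0768, limma). ERP44, which retrieves ERO1A and other clients from the early secretory pathway, had 4.92, 4.34 and 4.64 FPKM in Japoflavone B libraries, against 4.20, 3.98 and 4.06 FPKM in DMSO libraries. Japoflavone B libraries lay above DMSO libraries (log2 fold change 0.29 ± 0.06 (SE), edgeR adjusted p = 0.00026), though with limma it was called on neither the FPKM nor the TPM scale. PDIA6, an isomerase known to act on IRE1, had 101, 103 and 105 FPKM in Japoflavone B libraries, against 96.3, 95.8 and 100 FPKM in DMSO libraries. Its groups lay apart by a small margin (log2 fold change 0.18 ± 0.05 (SE), edgeR adjusted p = 0.00154). It was not called with library totals alone (log2 fold change 0.08, edgeR adjusted p = 0.118) or on the FPKM scale, and the sign turned on log2(TPM + 1), at -0.03 (not called).

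CRELD2, a stress-inducible ER protein with EGF-like domains, had 3.33, 3.03 and 3.22 FPKM in Japoflavone B libraries, against 4.84, 4.40 and 4.76 FPKM in DMSO libraries. It fell, with no overlap between groups (log2 fold change -0.44 ± 0.09 (SE), edgeR adjusted p = 0.00015), while its membrane-bound relative CRELD1 had 1.15, 0.85 and 1.11 FPKM in Japoflavone B libraries, against 1.29, 1.2 and 0.980 FPKM in DMSO libraries and was not called. The other isomerases not called included PDIA4, with 132 to 137 FPKM after Japoflavone B and 136 to 144 FPKM after DMSO. Its log2 fold change was 0.05 ± 0.05 (adjusted p = 0.338, edgeR), and it was negative with library totals alone (-0.05), on log2(FPKM + 1) (-0.05) and on log2(TPM + 1), where it was called lower (-0.16, limma adjusted p = 0.00616). PDIA3, which serves glycoproteins bound to CANX and CALR, had 28.9 to 30.7 FPKM after Japoflavone B and 32.8 to 33.1 FPKM after DMSO, and its log2 fold change was -0.04 ± 0.05 (SE), edgeR adjusted p = 0.503. It was called lower with library totals alone (-0.14, edgeR adjusted p = 0.00935) and on the FPKM and TPM scales. A pseudogene copy of it, PDIA3P1, took 886 counts in Japoflavone B libraries and 1112 in DMSO libraries, while PDIA3 had 19014 in Japoflavone B libraries and 22440 in DMSO libraries. TXNDC5 and TXNDC11, an isomerase and a membrane-bound partner of EDEM proteins, had log2 fold changes of -0.24 ± 0.13 and 0.14 ± 0.08 (adjusted p = 0.0962 and 0.118, edgeR). TXNDC5 was called lower with library totals alone (-0.34, edgeR adjusted p = 0.0192), on the FPKM and TPM scales and among genes with a mean of at least 2 FPKM.

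With TMM factors, calls of the ERAD genes chosen here ran in a single direction. Of 10 tested, 8 (80%) were called higher, against 34.7% of all genes tested, and none lower, against 35.4%. The remaining 2 were not called, and the median log2 fold change of the 10 was 0.68. At least 2-fold higher were SELENOS, HERPUD1 and SYVN1, although SYVN1 had a log2 fold change of 0.94 on log2(TPM + 1). Their summed level was 233, 235 and 234 FPKM in Japoflavone B libraries, against 165, 161 and 161 FPKM in DMSO libraries. With library totals alone DERL2 was called lower, and on log2(TPM + 1) DERL2 and OS9 were.

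SELENOS (ENSG00000131871, chr15:101270817-101277500, minus strand, GRCh38), a selenoprotein that recruits the ATPase VCP to the ER membrane, had 33.3, 36.4 and 35.2 FPKM in Japoflavone B libraries, against 12.4, 11.9 and 13.2 FPKM in DMSO libraries. The lowest Japoflavone B library stood far above the highest DMSO library (log2 fold change 1.59 ± 0.06 (SE), edgeR adjusted p = 1.32e-18). HERPUD1 (ENSG00000051108, chr16:56932142-56944864, plus strand, GRCh38), a membrane protein that joins the ubiquitin ligase complex, had 20.0, 18.6 and 19.0 FPKM in Japoflavone B libraries, against 7.95, 8.68 and 9.13 FPKM in DMSO libraries. Again the groups lay apart by more than the spread within either (log2 fold change 1.27 ± 0.06 (SE), edgeR adjusted p = 4.48e-16). SYVN1 (ENSG00000162298, chr11:65121780-65134532, minus strand, GRCh38), the ubiquitin ligase HRD1 itself, had 21.0, 21.8 and 20.7 FPKM in Japoflavone B libraries, against 9.33, 10.6 and 10.3 FPKM in DMSO libraries, and its libraries separated likewise (log2 fold change 1.18 ± 0.06 (SE), edgeR adjusted p = 7.41e-16). SEL1L, its adaptor, had 36.1, 33.6 and 35.8 FPKM in Japoflavone B libraries, against 27.1, 24.0 and 23.9 FPKM in DMSO libraries. Its Japoflavone B libraries lay above all DMSO libraries (log2 fold change 0.59 ± 0.05 (SE), edgeR adjusted p = 1.47e-10).

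The EDEM proteins, which trim mannose from misfolded glycoproteins and so mark them for degradation, were all 3 called higher. EDEM3 had 6.16, 6.00 and 6.29 FPKM in Japoflavone B libraries, against 3.88, 3.41 and 3.34 FPKM in DMSO libraries. EDEM1 had 20.7, 20.2 and 22.4 FPKM in Japoflavone B libraries, against 14.4, 12.9 and 12.9 FPKM in DMSO libraries. For both, all Japoflavone B libraries lay above all DMSO libraries (EDEM3 log2 fold change 0.90 ± 0.06 (SE), edgeR adjusted p = 3.79e-13; EDEM1 log2 fold change 0.76 ± 0.06 (SE), edgeR adjusted p = 5.09e-12). EDEM2, the most abundant of the 3 in FPKM, had 41.4, 43.9 and 41.7 FPKM in Japoflavone B libraries, against 37.9, 38.9 and 37.1 FPKM in DMSO libraries, also without overlap (log2 fold change 0.26 ± 0.06 (SE), edgeR adjusted p = 0.000348), but was not called on log2(TPM + 1) (adjusted p = 0.341, limma).

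The derlins are membrane proteins of the channel through which substrates leave the ER. DERL1 had 19.1, 19.2 and 18.3 FPKM in Japoflavone B libraries, against 15.02, 13.7 and 14.1 FPKM in DMSO libraries, with no overlap (log2 fold change 0.50 ± 0.06 (SE), edgeR adjusted p = 7.33e-09). DERL2 had 9.68, 9.92 and 9.90 FPKM in Japoflavone B libraries, against 11.9, 10.6 and 10.3 FPKM in DMSO libraries; its log2 fold change was -0.06 ± 0.06 (SE), edgeR adjusted p = 0.453, and it was not called, although in FPKM every Japoflavone B library lay below every DMSO library. DERL3 had 7 counts over the Japoflavone B libraries and 3 over the DMSO libraries. It overlaps SMARCB1 on the other strand, which had 1561 counts after Japoflavone B and 3183 after DMSO, so its level is uncertain where reads of the pair were not assigned. OS9, the lectin that reads trimmed sugars for SEL1L, had 24.7 to 25.6 FPKM after Japoflavone B and 24.8 to 26.6 FPKM after DMSO. Its groups overlapped and it was not called (log2 fold change 0.07 ± 0.05 (SE), edgeR adjusted p = 0.195); the sign was negative with library totals alone (-0.03), on log2(FPKM + 1) (-0.03) and on log2(TPM + 1), where it was called lower (-0.14, limma adjusted p = 0.0127).

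**Figure D3:**
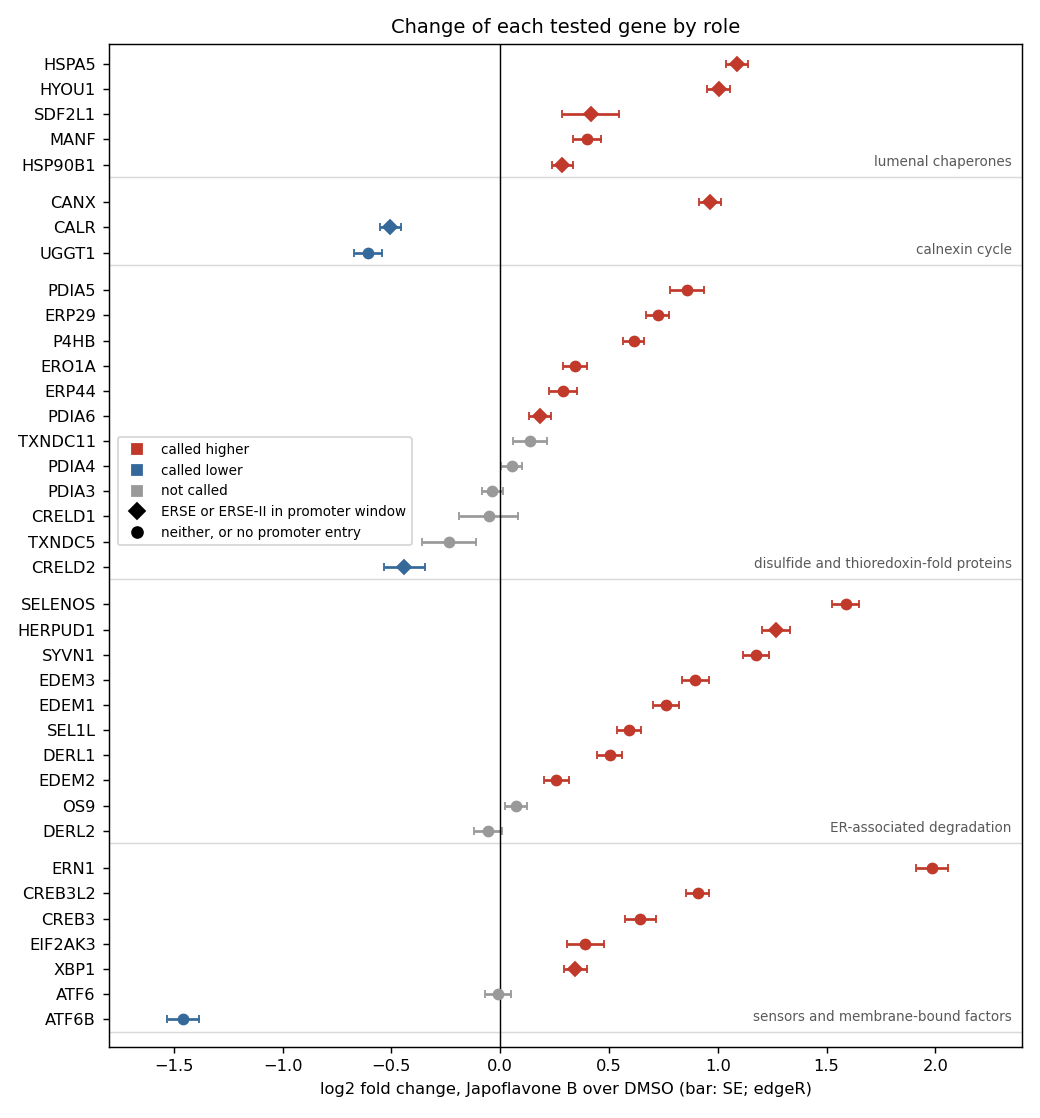
Log2 fold change of Japoflavone B over DMSO for the 37 tested genes by role, with bars of 1 SE from edgeR; positive values are higher after Japoflavone B. ERN1 stands highest at 1.98 and ATF6B lowest at -1.46, and all 5 chaperones lie above 0.

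The sensors and membrane-bound factors spread wider than any other group, with ERN1 and ATF6B at its ends. Of the 7 genes, 5 were called higher (ERN1, XBP1, EIF2AK3, CREB3 and CREB3L2), 1 lower (ATF6B) and ATF6 was not called. The shares were 71.4% higher and 14.3% lower, against 34.7% and 35.4% of all genes tested.

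ERN1 (ENSG00000178607, chr17:64039080-64130819, minus strand, GRCh38), the kinase and endonuclease IRE1, had 5.76, 5.81 and 6.26 FPKM in Japoflavone B libraries, against 1.81, 1.61 and 1.40 FPKM in DMSO libraries. No library of either group came near the other group, and this was the highest fold change of the 37 genes (log2 fold change 1.98 ± 0.07 (SE), edgeR adjusted p = 3.01e-19). XBP1, the transcript that IRE1 splices, had 45.6, 47.4 and 47.2 FPKM in Japoflavone B libraries, against 40.7, 38.4 and 39.2 FPKM in DMSO libraries. It also rose, without overlap (log2 fold change 0.35 ± 0.05 (SE), edgeR adjusted p = 2.2e-06). Counts per gene do not separate spliced from unspliced XBP1. EIF2AK3, the kinase PERK, had 1.83, 1.67 and 2.03 FPKM in Japoflavone B libraries, against 1.69, 1.48 and 1.35 FPKM in DMSO libraries. In FPKM the groups overlapped, since DMSO library 1 lay above Japoflavone B library 2, while the log2 fold change was 0.39 ± 0.09 (SE), edgeR adjusted p = 0.00023. With limma it was not called on the FPKM scale (adjusted p = 0.0843 with a pseudocount of 1) or on log2(TPM + 1) (adjusted p = 0.294). The ratio of ERN1 to EIF2AK3 was 3.14, 3.48 and 3.08 after Japoflavone B, against 1.07, 1.09 and 1.04 after DMSO.

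The ATF6 paralogs parted. ATF6 had 5.58, 5.24 and 5.51 FPKM in Japoflavone B libraries, against 6.09, 5.61 and 5.95 FPKM in DMSO libraries, and it was not called (log2 fold change -0.01 ± 0.06 (SE), edgeR adjusted p = 0.9); on log2(TPM + 1) it was called lower (-0.21, limma adjusted p = 0.0194). ATF6B (ENSG00000213676, chr6:32115264-32128253, minus strand, GRCh38), which is also cut in the Golgi, had 5.73, 6.13 and 6.46 FPKM in Japoflavone B libraries, against 18.4, 18.4 and 17.2 FPKM in DMSO libraries. All Japoflavone B libraries lay far below all DMSO libraries (log2 fold change -1.46 ± 0.07 (SE), edgeR adjusted p = 3.66e-16), and it was the only gene of the 37 that fell by at least 2-fold. The ratio of ATF6 to ATF6B was 0.975, 0.855 and 0.853 after Japoflavone B, against 0.332, 0.304 and 0.346 after DMSO. ATF6B overlaps TNXB on the same strand, and TNXB had 605 counts over the Japoflavone B libraries and 137 over the DMSO libraries, while ATF6B had 1194 over the Japoflavone B libraries and 3796 over the DMSO libraries.

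CREB3 and CREB3L2 are related membrane-bound factors that are freed by cleavage in the Golgi. CREB3L2 had 28.9, 29.1 and 31.5 FPKM in Japoflavone B libraries, against 17.9, 16.6 and 16.7 FPKM in DMSO libraries, with no overlap (log2 fold change 0.91 ± 0.05 (SE), edgeR adjusted p = 1.22e-14). CREB3 had 35.2, 37.8 and 36.8 FPKM in Japoflavone B libraries, against 23.6, 27.0 and 24.6 FPKM in DMSO libraries, also without overlap (log2 fold change 0.64 ± 0.07 (SE), edgeR adjusted p = 3.42e-09).

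Some of these genes share ground with a neighbour, and reads of the pair may not be told apart. For genes on opposite strands this depends on the strand setting of the counting, which is not given in the sources used here. For genes on the same strand no strand setting separates the reads. SYVN1 had 6270 counts over the Japoflavone B libraries and 3195 over the DMSO libraries. It overlaps FAU on the same strand, which had 8012 counts after Japoflavone B and 5972 after DMSO, and MRPL49 on the other strand, which had 6046 after Japoflavone B and 3666 after DMSO. CREB3 had 3219 counts after Japoflavone B and 2379 after DMSO, and GBA2, which it overlaps, 3296 after Japoflavone B and 2551 after DMSO. TXNDC5 had 466 counts after Japoflavone B and 633 after DMSO, and its neighbour BMP6 1865 after Japoflavone B and 3110 after DMSO. DERL1 had 7078 counts after Japoflavone B and 5748 after DMSO, and TBC1D31, which it overlaps on the other strand, 1030 after Japoflavone B and 1651 after DMSO. The values of these genes and of DERL3 are less certain for this reason. So are those of DERL2, CRELD2, PDIA5, TXNDC11 and ATF6B, which overlap MIS12, ALG12, SEC22A, SNN and TNXB.

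**Figure D4:**
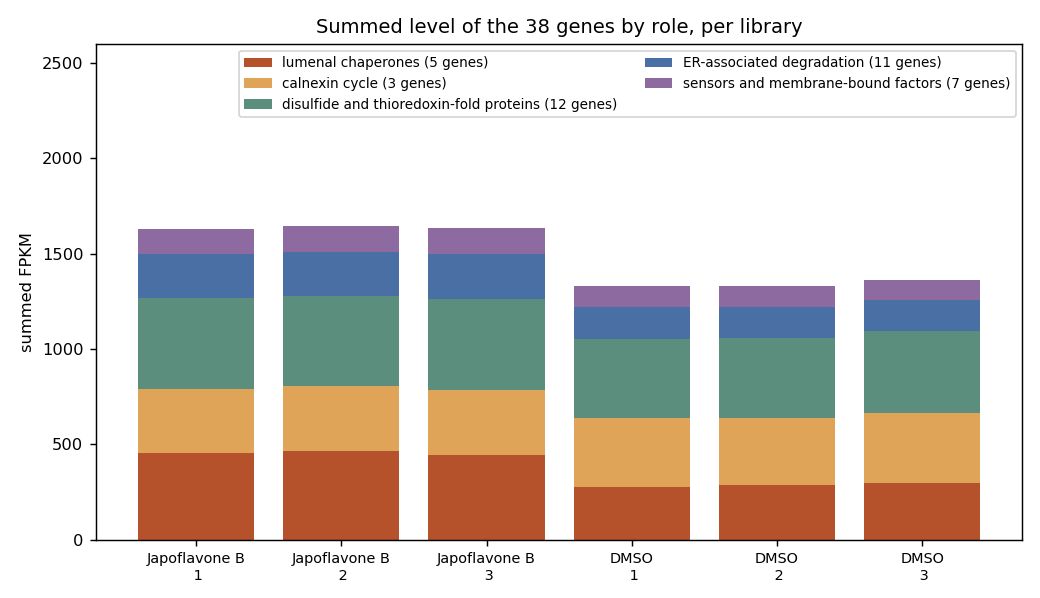
Summed FPKM of the 38 genes in each library as a stacked bar from 0, coloured by role, with the 3 Japoflavone B libraries left of the 3 DMSO libraries. The bars reach 1628 to 1644 FPKM after Japoflavone B and 1328 to 1364 FPKM after DMSO, with the chaperone block at 444 to 467 FPKM and 279 to 299 FPKM in those groups.

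The 38 genes together summed to 1636 ± 8.35 FPKM after Japoflavone B and 1340 ± 20.5 FPKM after DMSO (SD, n = 3 each), a ratio of 1.22. HSPA5 took 15.8% ± 0.429 of that sum after Japoflavone B and 9.72% ± 0.219 after DMSO. Without HSPA5 the sum was 1378 ± 4.27 FPKM after Japoflavone B and 1210 ± 15.6 FPKM after DMSO, a ratio of 1.14. In TPM, which fixes the sum over all genes, the ratio was 1.13 with HSPA5 and 1.05 without it.

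Other genes of the same pathways, listed by function, were set beside these. Of 43 other ER folding genes tested, 20 (46.5%) were called higher and 12 (27.9%) lower, with a median log2 fold change of 0.10. Over all genes tested, 34.7% were called higher and 35.4% lower. HSPA13 and DNAJB9, ER chaperones of the BiP system, rose to 63.8 and 46.4 FPKM in Japoflavone B libraries, against 16.0 and 8.86 FPKM in DMSO libraries (log2 fold changes 2.10 and 2.50, edgeR adjusted p = 1.26e-22 and 3.33e-20). CALU, a calcium-binding ER protein, also rose, by 0.98, while SERPINH1, the collagen chaperone, fell by 1.35 on the log2 scale. On log2(TPM + 1), 12 of these genes were called higher and 19 lower, against 3868 and 7169 of all 16082 genes tested.

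Of 31 other ERAD genes, 15 (48.4%) were called higher and 7 (22.6%) lower, with a median of 0.24. The shares over all genes tested were 34.7% and 35.4%. HM13, the signal peptide peptidase, rose to 28.3 FPKM in Japoflavone B libraries, against 14.9 FPKM in DMSO libraries (log2 fold change 1.03), and ERLIN2 and RHBDD1, a membrane scaffold and a rhomboid protease of ERAD, rose by 0.92 and 1.00. VCP, the ATPase that SELENOS recruits, averaged 37.5 FPKM after Japoflavone B and 64.2 FPKM after DMSO, a log2 fold change of -0.67 (edgeR adjusted p = 1.37e-12).

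The list of outputs of the PERK arm, known from earlier results of these data, is given for its values only. All 14 genes were called higher, against 34.7% of all genes tested, with a median log2 fold change of 1.76. At least 2-fold higher were 11 (78.6%), against 9.67% of all genes tested. The genes were listed by function, and whether PERK was active was not tested. ATF4 averaged 214 FPKM after Japoflavone B and 73.7 FPKM after DMSO, and ATF3 averaged 13.2 FPKM after Japoflavone B and 0.976 FPKM after DMSO. TRIB3 averaged 50.3 FPKM after Japoflavone B and 11.3 FPKM after DMSO, and PPP1R15A 35.6 FPKM after Japoflavone B and 10.4 FPKM after DMSO.

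Of 13 tested relatives of the sensors and enzymes that process them, 3 (23.1%) were called higher and 7 (53.8%) lower. The shares over all genes tested were 34.7% and 35.4%. TMBIM6, a membrane protein known to restrain IRE1, averaged 188 FPKM after Japoflavone B and 114 FPKM after DMSO (log2 fold change 0.82). TRAF2, the adaptor that couples IRE1 to JNK, averaged 7.10 FPKM after Japoflavone B and 13.0 FPKM after DMSO (log2 fold change -0.76). The NF-Y subunits NFYB and NFYA, of the factor that binds the CCAAT part of the ERSE, averaged 6.21 and 4.18 FPKM after Japoflavone B and 10.8 and 7.13 FPKM after DMSO (log2 fold changes -0.70 and -0.67). The remaining subunit NFYC, chosen after its values were seen, had a log2 fold change of -0.38 (edgeR adjusted p = 0.000216).

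**Figure D5:**
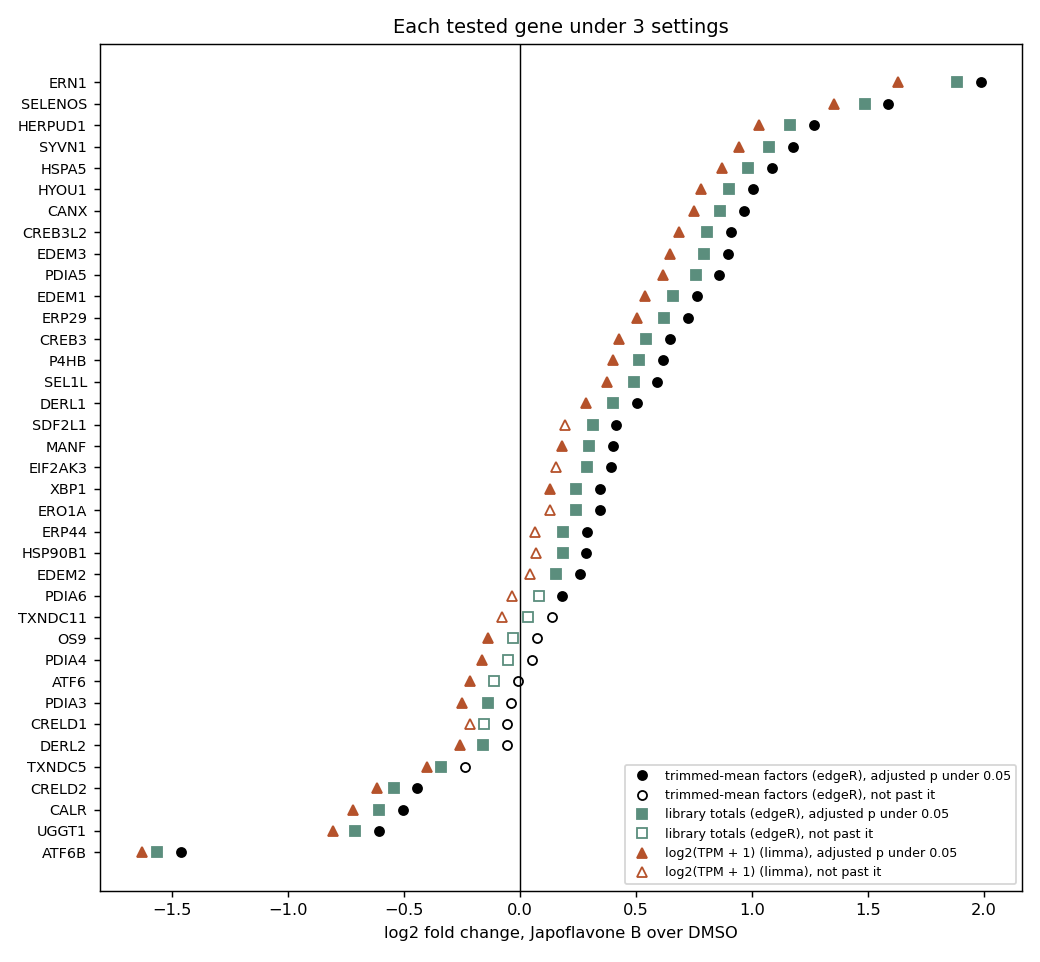
Log2 fold change of Japoflavone B over DMSO for each of the 37 tested genes with edgeR and TMM factors (circles), edgeR and library totals alone (squares) and limma on log2(TPM + 1) (triangles), filled where the adjusted p is under 0.05. The order of the genes is much the same, but the values shift to the left, so that 25 genes were called higher and 4 lower with TMM factors, 24 and 7 with library totals, and 18 and 10 on log2(TPM + 1).

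The calls held for most genes under the other settings: 22 of the 29 called genes kept their call in every alternative that gave a value, 18 higher and 4 lower. The 7 that lost it in at least 1 alternative were EDEM2, EIF2AK3, ERO1A, ERP44, HSP90B1, PDIA6 and SDF2L1, all called higher with log2 fold changes under 0.42. With 3 libraries in each group, an exact permutation test of a single gene cannot give a p below 0.1, so no such test is reported.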

How the data were processed

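Poly(A) RNA was selected with oligo(dT) beads and primed with random primers, per the labels' protocols. Tools named in the submitters' processing notes are HISAT2 2.0.1, HTSeq 0.6.1, cutadapt 1.9.1 and DESeq2 (no version), with the build GRCh38; the annotation release and strand setting are not given in the sources used here. The deposited table holds whole-number counts per gene and library that the authors made. The deposited FPKM values were made by the authors from these counts, the gene sizes in bases and the library totals, rounded to 2 decimals, and recomputed values differed by at most 0.005. The table has 20417 genes without a symbol.

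Groups came from the treatment labels. Counts were fitted with edgeR 4.0.16 in R 4.3.3 (quasi-likelihood, TMM factors, group as the only term) on genes kept by filterByExpr (at least 10 counts in enough libraries and 15 in total). SE is the absolute log2 fold change divided by the square root of F. The tests had been planned for counts with limma on FPKM as the fallback. Depth was 15298531 to 21744407 counts per library. No test was made over a list of genes.

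The genes and lists were chosen with earlier results of these data known. All 38 genes are named, and of each further list up to 4 genes with the lowest adjusted p and at least 1 FPKM in the higher group. Alternatives were other filters, scalings and tests (limma 3.58.1 on log2 FPKM or TPM, DESeq2 1.42.0), the replicate number as a block, and each library left out. Promoters came from RefSeq.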

Additional observations from a re-analysis of the deposited data

How the results depend on the processing

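Among the 19 alternatives, library totals, DESeq2 size factors and upper-quartile factors change the scaling only, and limma on FPKM or TPM changes the measure and the test as well. Per gene, fold changes stood lower than with TMM scaling by a median of -0.10 with library totals alone, -0.09 on log2(FPKM + 1) and -0.21 on log2(TPM + 1). ER genes called lower numbered 7 with library totals alone and 10 on log2(TPM + 1). Disulfide and thioredoxin-fold genes called lower numbered 2 at a mean of at least 2 FPKM, 3 with library totals alone, 3 on log2(FPKM + 1), 3 on log2(FPKM + 0.1) and 4 on log2(TPM + 1), where 3 were higher. Chaperones called higher numbered 3, and sensors called lower 2, on log2(TPM + 1). ERAD genes called lower numbered 1 with library totals alone and 2 on log2(TPM + 1). Other ERAD genes called lower numbered 11 with library totals alone and on either FPKM scale, and 12 on log2(TPM + 1). Other ER folding genes called higher numbered 13 on either FPKM scale and 12 on log2(TPM + 1), where 19 were lower. The calls over all 16082 genes tested shifted too. With library totals alone, 4764 were higher and 6467 lower. On log2(FPKM + 1) these were 4656 and 6230, on log2(FPKM + 0.1) 4656 and 6240, and on log2(TPM + 1) 3868 and 7169. At a mean of at least 2 FPKM, 3938 of 10038 genes tested were higher and 3884 lower. The causes were not tested.

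The sign turned for PDIA4 (-0.049 with library totals alone and on both FPKM scales, -0.16 on log2(TPM + 1)), OS9 (-0.028 with library totals alone, -0.0265 and -0.027 on log2 of FPKM + 1 and + 0.1, -0.14 on log2(TPM + 1)), PDIA6 (-0.032 on log2(TPM + 1)) and TXNDC11 (-0.075 on log2(TPM + 1)). Leaving out each library in turn gave log2 fold changes of -0.14 to 0.065 for CRELD1, -0.087 to 0.0105 for DERL2 and -0.053 to 0.021 for ATF6, none of them called. SDF2L1 ran from 0.27 to 0.56 and was not called without Japoflavone B library 1. Counts of ER genes ran from 24 to 25 higher, with 4 lower throughout.

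Same-numbered libraries were not paired in the main fit. Their deviations from the group means correlated at 0.0134, -0.00417 and -0.0446, and 1 of 6 libraries correlated best with its own number. With 3 libraries in each group, these values cannot show whether same-numbered libraries were prepared together. With the number as a block, 25 ER genes were called higher and 4 lower, and 5502 and 5618 of all genes, against 5577 and 5686 without it. EIF2AK3 and CRELD1 gave no value at a mean of at least 2 FPKM. The planned description of protein tails was not run. Depth limits DERL3, with 7 and 3 counts.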

Other observations

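Outside the 38 genes, 34 genes had an ERSE or ERSE-II in their RefSeq promoter, and 20 of them were tested. Of these, 10 were called higher after Japoflavone B, 8 lower and 2 were not called by edgeR's quasi-likelihood test, with a median log2 fold change of 0.41. Over all genes tested, 34.7% were called higher and 35.4% lower. The 9 tested genes with an ERSE gave 6 higher and 3 lower, with a median of 0.77. The 11 with an ERSE-II gave 4 higher, 5 lower and 2 not called, with a median of -0.13. The genes below were chosen after their values were seen. FICD, the enzyme that attaches AMP to BiP and takes it off again, had the highest log2 fold change of the 20, 2.45 ± 0.09 (SE; adjusted p = 5.07e-19). SERP1, which is known to stabilise membrane proteins at the translocon, had 0.78 ± 0.05 (adjusted p = 4.45e-13), and EIF2A, a translation initiation factor, had 0.98 ± 0.05 (adjusted p = 8.79e-16). ALG12, a mannosyltransferase of the ER that overlaps CRELD2, was lower, at -0.42 ± 0.11 (adjusted p = 0.00165), and ERO1B, the relative of ERO1A, was lower at -0.22 ± 0.09 (adjusted p = 0.023).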
